A study of Bos indicus with 11 samples.

Results

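The genes of antigen processing and presentation were followed in the bovine endometrium on day 6 after artificial insemination (AI). The set was listed as 10 genes, namely B2M, TAP1, TAP2, TAPBP, PSMB8, PSMB9, CD74, CIITA, BOLA-DRA and BOLA-DMA, and its members were the rows of the deposited table whose symbol equals a listed name. This gave 9 genes of the 24616 rows, all of which passed the filter on low values (a mean of at least 5 normalized counts over the cows). TAP2 is listed only in a row with the joint symbol TAP2; LOC618733, which was followed beside the members and not counted among them. The biopsies came from healthy multiparous Nelore cows whose estrus had been synchronized with a prostaglandin analogue, and they were taken from the uterine horn opposite the ovary with the corpus luteum. All cows had been inseminated, and they were divided afterwards by the diagnosis on day 30 into 6 cows that were pregnant (P) and 5 that were not (NP), with 1 biopsy and 1 library per cow. Cows for sequencing had also been chosen for a narrow range of plasma progesterone. Cow P617 is labelled as pregnant and was kept as P, although the study's supplementary text gives this number as an NP cow, so values without it are given for TAP1, the joint TAP2 row, PSMB8 and PSMB9, the rows whose differences moved most without it. In a biopsy, fewer cells of a type and less RNA per cell cannot be told apart.

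Antigen presentation shows fragments of a cell's proteins to T lymphocytes. In the class I route, the proteasome cuts proteins of the cell itself, the TAP transporter (TAP1 with TAP2) carries the peptides into the endoplasmic reticulum, tapasin (TAPBP) holds empty class I molecules beside the transporter, and the loaded heavy chain reaches the surface together with beta-2-microglobulin (B2M). PSMB8 and PSMB9 are the subunits that replace their constitutive counterparts in the immunoproteasome, a form induced by interferon-gamma. In the class II route, used mainly by macrophages, dendritic cells and B cells, the invariant chain CD74 escorts newly made class II molecules such as the DR dimer, whose alpha chain is BOLA-DRA, and the DM dimer (BOLA-DMA with BOLA-DMB) exchanges the remnant of CD74 for a peptide. CIITA is the transcriptional coactivator that class II genes depend on. In the uterus these genes are of interest because the endometrium must keep immune defence while it receives an embryo that carries paternal antigens. PTPRC, to which the members were related across cows, encodes CD45, a surface phosphatase of leukocytes.

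Between 9290949 and 13569085 reads were counted on genes per cow. The normalized counts were compared on the log2(normalized count + 1) scale with limma over the 15081 genes that passed the filter, with the Benjamini-Hochberg adjustment and a threshold of 0.1. Log2 fold changes are NP over P. Cows P617, P1541 and NP638 had the highest levels of smooth muscle transcripts. Their mean log2 levels over the smooth muscle list were 14.6, 14.4 and 13.7. The next cow, P1753, was at 13.3, so NP638 was not set apart from it. The summed level of the 9 tested genes of the smooth muscle list ranged from 79265 to 639816 normalized counts in P cows and from 38971 to 265449 in NP cows, and it was highest in these 3 cows. EPCAM, which marks epithelium, was at 269 normalized counts in P617 and between 2110 and 4719 in the other 10 cows. The results that rest on these cows are given with and without them.

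In the group comparison, the members with the smallest p-values were of the class II route, with higher levels in NP cows, but no gene passed the threshold. With limma, 0 of the 9 members and 0 of the 15081 genes (0%) had an adjusted p-value under 0.1. Of the members, 8 of 9 had a log2 fold change above 0, against 50.2% of all genes tested, and the median log2 fold change of the members was 0.52 against 0.0018 over all genes. Before adjustment, 2 of 9 members, BOLA-DRA and CD74, both higher in NP cows, had p-values under 0.05, where the share among all genes was 7.84% in either direction and 5.49% higher in NP. Members are not independent of each other, and these counts describe the set only. In none of the members did every cow of one group lie above every cow of the other, which was the case for 1.09% of the genes tested.

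Cow P904 lay at the upper end of its group. It was the highest of the P cows in 8 of the 9 members, whereas NP238 was the lowest of the NP cows in 7 and NP2810 the highest of the NP cows in 6. Without P904, limma called 171 genes (1.13%) and 1 of the members, BOLA-DRA, and 6 members had an unadjusted p-value under 0.05, where the share of all genes was 10.3%.

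**Figure D1:**
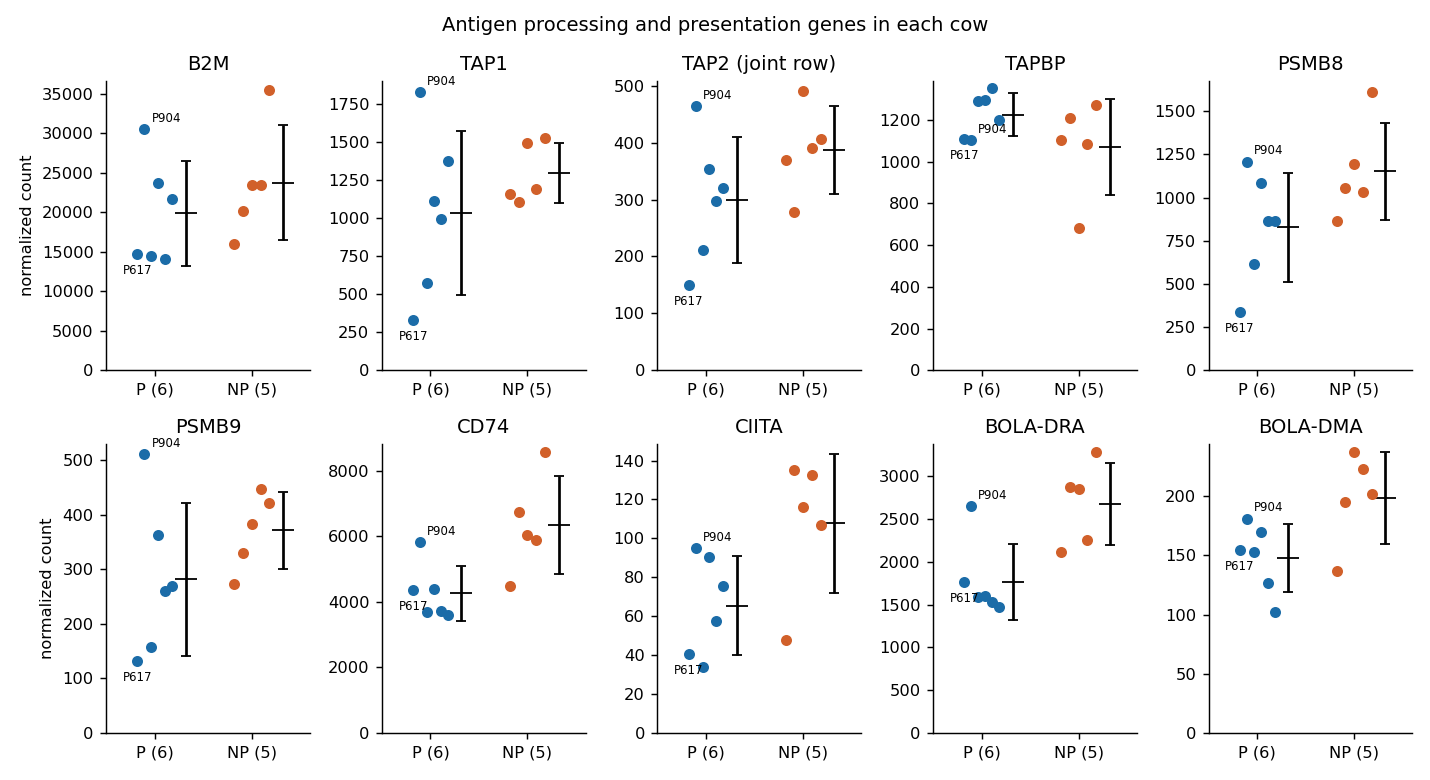
Normalized counts (linear axes from 0) of the 9 members and the joint TAP2 row in each P cow (blue) and NP cow (orange), with the mean and SD of each group in black and cows P904 and P617 named. P904 was the highest P cow for 8 of the 9 members, and P617 was the lowest P cow for 3 of them, TAP1, PSMB8 and PSMB9.

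Among the class II members, BOLA-DRA (ENSBTAG00000010645), the alpha chain of the DR molecule, ranged from 1470 to 2655 normalized counts in P cows with a median of 1595. In the NP cows it was at 2111 (NP238), 2879 (NP638), 2848 (NP856), 2259 (NP2541) and 3283 (NP2810). All 5 NP cows lay above 5 of the 6 P cows, and only P904 reached into their range. The means were 1768 ± 445 normalized counts (SD, n = 6) for P and 2676 ± 483 (SD, n = 5) for NP. This gave a log2 fold change of 0.61 (SE 0.172, 95% interval 0.235 to 0.986), with an adjusted p-value of 0.346 in limma and p = 0.0108 in an exact permutation test (two-sided, over the 462 ways of dividing the cows into 6 and 5), which takes no account of the other genes. Without P904 the log2 fold change was 0.73 with an adjusted p-value of 0.0482 in limma. P904 was the highest P cow for this gene, so leaving it out had to widen the difference. With each other cow left out in turn, limma called no gene.

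CD74 (ENSBTAG00000015228), the invariant chain, was distributed over the cows in a like way. It ranged from 3601 to 5823 normalized counts in P cows with a median of 4042, and was at 4466 (NP238), 6728 (NP638), 6021 (NP856), 5880 (NP2541) and 8559 (NP2810) in NP cows. Again all 5 NP cows lay above every P cow other than P904. The means were 4261 ± 841 (SD, n = 6) and 6331 ± 1492 (SD, n = 5), and the log2 fold change was 0.56 (SE 0.181, 95% interval 0.164 to 0.956, adjusted p-value 0.434 in limma, exact permutation p = 0.0108). Over all alternatives run, the adjusted p-values ranged from 0.0482 to 0.870 for BOLA-DRA and from 0.148 to 0.929 for CD74. DESeq2 on the reads recovered from the table gave 0.121 and 0.154. It called 201 of the 14981 genes for which it gave an adjusted p-value (1.34%) and 0 members, and 4 members were under 0.05 before adjustment, against 9.81% of these genes.

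CIITA (ENSBTAG00000020649), the coactivator, was at 33.9 to 94.8 normalized counts in P cows (median 66.3). Among the NP cows, NP238 was low at 47.5, and the others were at 135 (NP638), 116 (NP856), 133 (NP2541) and 107 (NP2810), above every P cow. The log2 fold change was 0.72 (SE 0.354, adjusted p-value 0.671 in limma), and its 95% interval, from -0.05, included 0. BOLA-DMA (ENSBTAG00000015730) had the same form, with 102 to 181 normalized counts in P cows (median 154), 137 in NP238 and 195, 237.7, 223 and 202 in NP638, NP856, NP2541 and NP2810. Its log2 fold change was 0.42 (-0.00134 to 0.85, adjusted p-value 0.639).

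Of the class I members, B2M, TAP1, PSMB8 and PSMB9 differed between the groups by less than 1 SD of the P cows on the log2 scale. For TAP1, PSMB8 and PSMB9 this SD was 0.90, 0.67 and 0.73. The SD of the NP cows was 0.22, 0.33 and 0.28, which the differences of these genes exceeded. B2M (ENSBTAG00000012330), the light chain of every class I molecule, was between 14135 and 30576 normalized counts in P cows (median 18217) and between 15997 and 35510 in NP cows (median 23474), so that the groups overlapped almost throughout. Its log2 fold change was 0.27 (95% interval -0.34 to 0.88, adjusted p-value 0.853 in limma), and it was 0.11 without NP2810 and 0.41 without P904. TAP1 (ENSBTAG00000008953), a subunit of the peptide transporter, spread over 5.55-fold among the 11 cows, and this spread lay in the P cows. They ranged from 329 in P617 and 571 in P1541 to 1824 in P904, whereas the NP cows lay between 1102 and 1522. TAP1 had a log2 fold change of 0.52 (-0.298 to 1.33, adjusted p-value 0.794), which was 0.23 without P617. The joint TAP2 row (ENSBTAG00000003038) ranged from 149 in P617 to 465 in P904 and from 278 to 491 in NP cows (log2 fold change 0.44, adjusted p-value 0.760, and 0.25 without P617).

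TAPBP (ENSBTAG00000016828), encoding tapasin, was the exception in direction. It was even among the P cows, at 1106 to 1354 normalized counts, and among the NP cows 4 lay between 1088 and 1272 and NP856 was at 682. The log2 fold change was -0.22 (95% interval -0.56 to 0.11, adjusted p-value 0.779) and -0.07 without NP856.

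The immunoproteasome subunits followed TAP1. PSMB8 (ENSBTAG00000003039) was at 338 in P617, 613 in P1541 and between 862 and 1208 in the other P cows, and at 867 (NP238), 1053 (NP638), 1194 (NP856), 1034 (NP2541) and 1612 (NP2810) in NP cows. PSMB9 (ENSBTAG00000008954) was at 131 in P617, 157 in P1541 and between 260 and 512 in the other P cows, and at 274 (NP238), 331 (NP638), 383 (NP856), 448 (NP2541) and 422 (NP2810) in NP cows. In both genes P617 and P1541 lay below all other cows. The log2 fold changes were 0.56 (-0.10 to 1.21, adjusted p-value 0.725 in limma) for PSMB8 and 0.52 (-0.17 to 1.22, adjusted p-value 0.760) for PSMB9, and they were 0.32 and 0.33 without P617. In the RefSeq gene table of assembly NIAB-ARS_B.indTharparkar_mat_pri_1.0, in which 7 of the 10 listed symbols were found, PSMB8, TAP1 and PSMB9 are consecutive genes. The use of strand in counting is not given in the sources used here, so reads in overlaps of neighbouring genes could have been assigned to either or to neither.

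The balance of immunoproteasome and constitutive subunits was computed in each cow as the mean log2 level of PSMB8 and PSMB9 minus that of PSMB5 and PSMB6, the subunits they replace. Differences between cows in this ratio do not depend on the scaling of a library, while its absolute value depends on gene lengths and has no meaning here. The P cows were at -2.80 (P617), -0.60 (P904), -2.36 (P1541), -0.89 (P1631), -1.53 (P1753) and -1.28 (P2396), and the NP cows at -0.98 (NP238), -0.85 (NP638), -0.61 (NP856), -0.76 (NP2541) and -0.72 (NP2810). The NP cows were close together within the upper part of the range of the P cows. The means were -1.58 ± 0.85 (SD, n = 6) in P and -0.78 ± 0.14 (SD, n = 5) in NP. The difference of 0.79 on the log2 scale, or 1.73-fold, did not pass 0.05 (two-sided, exact permutation p = 0.0714, with 0.00216 as the smallest p possible). With PSMB10 added to PSMB8 and PSMB9, and its counterpart PSMB7 to the reference, the difference was 0.71 (exact permutation p = 0.0433). Without P617, P1541 and NP638 the difference was 0.31 (exact permutation p = 0.257), and in leaving out each cow it ranged from 0.55 without P617 to 0.99 without P904 (exact permutation p = 0.0159 in the latter). All 14 genes of the constitutive proteasome list had log2 fold changes below 0, from -0.32 for PSMB6 to -0.09, and PSMB6 was the only one of them under 0.05 before adjustment (adjusted p-value 0.621 in limma).

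**Figure D2:**
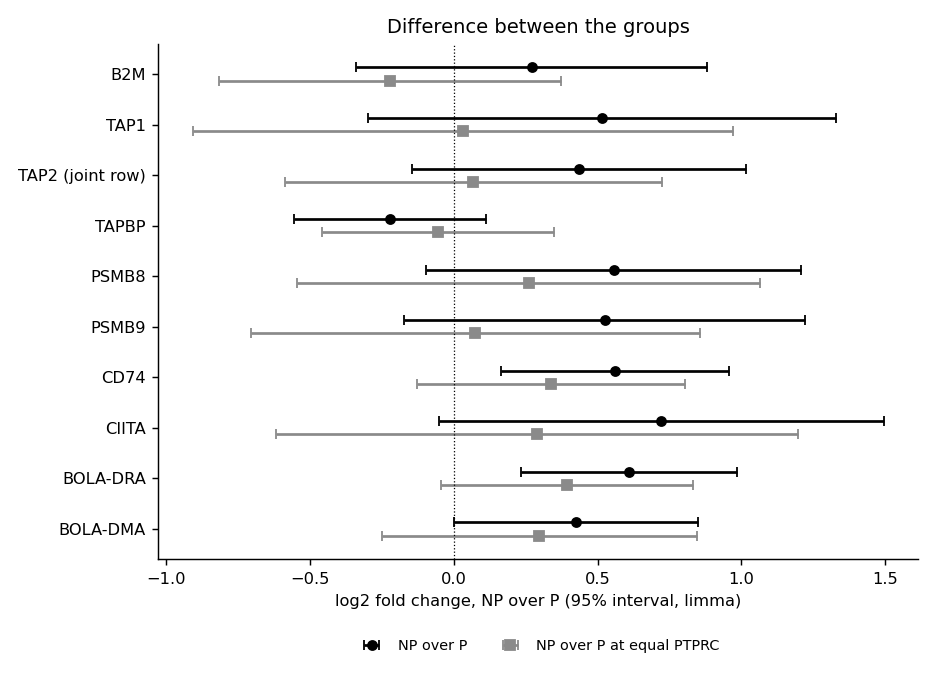
Log2 fold changes (NP over P) of the members and the joint TAP2 row with 95% intervals from limma, in the comparison of the groups (black circles) and with PTPRC as a covariate (grey squares). BOLA-DRA and CD74 are the members whose black interval lies above 0, and every grey interval includes 0.

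The heavy chains and the other class II chains stand in rows that cannot be read as one gene in every cow, since these genes are polymorphic and have near-identical copies. Of the 5 class I heavy chain rows, 0 were called, 0 were under 0.05 before adjustment in limma, and all 5 had log2 fold changes above 0 (0.08 to 1.01). A sixth row, BOLA-A (ENSBTAG00000005182), which was not in the list and was looked at after its values had been seen, had 730 ± 157 normalized counts (SD, n = 6) in P and 654 ± 315 (SD, n = 5) in NP, a difference of -0.24 on the log2 scale (exact permutation p = 0.409). JSP.1 (ENSBTAG00000020116) lay at separate levels. It was between 92.6 and 237 normalized counts in 5 cows (P617, P904, P1753, NP856 and NP2541) and between 1193 and 2415 in the other 6, with a gap of 5.04-fold between them, and both groups of cows were on both sides. A mean of such a row describes which cows were sampled. The sum of the 5 rows, chosen after their values had been seen, was 5429 ± 2813 (SD, n = 6) in P and 7833 ± 1911 (SD, n = 5) in NP, and this difference did not pass the exact permutation test (p = 0.126, and p = 0.130 with BOLA-A in the sum).

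BOLA-DRB3 (ENSBTAG00000013919), the beta chain that pairs with BOLA-DRA, was the class II row with the smallest p-value. It was between 475 and 1131 normalized counts in P cows (median 715) and at 1133 (NP238), 1341 (NP638), 1409 (NP856), 1252 (NP2541) and 1246 (NP2810) in NP cows. The groups did not overlap, as was the case for 1.09% of the genes tested, although P1541 and NP238 were nearly equal. P617 was at 685, so with that cow as NP the groups would overlap. The means were 742 ± 226 (SD, n = 6) and 1276 ± 105 (SD, n = 5), with a log2 fold change of 0.83 (SE 0.188, adjusted p-value 0.264 in limma). Unlike BOLA-DRA, it was not high in P904 (746). How far the level of this polymorphic row in a cow depends on its alleles was not tested. The study, which tested these samples with DESeq2, lists BOLA-DRB3 among its differentially expressed genes (adjusted p-value under 0.1), whereas limma here did not call it. BOLA-DMB, the partner of BOLA-DMA, was at 227 ± 69.8 (SD, n = 6) in P and 340 ± 57.3 (SD, n = 5) in NP cows (log2 fold change 0.60, adjusted p-value 0.434). The DQ rows were at 0 in several cows. BOLA-DQA5 was at 0 in P2396, NP856 and NP2541 and at 149 in NP238, and BOLA-DQB was at 0 in 7 cows. These rows were tested with the class II pathway list, and their sum did not pass the exact permutation test (p = 0.903). With so many values at 0, no group difference of DQ is read from them.

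**Figure D3:**
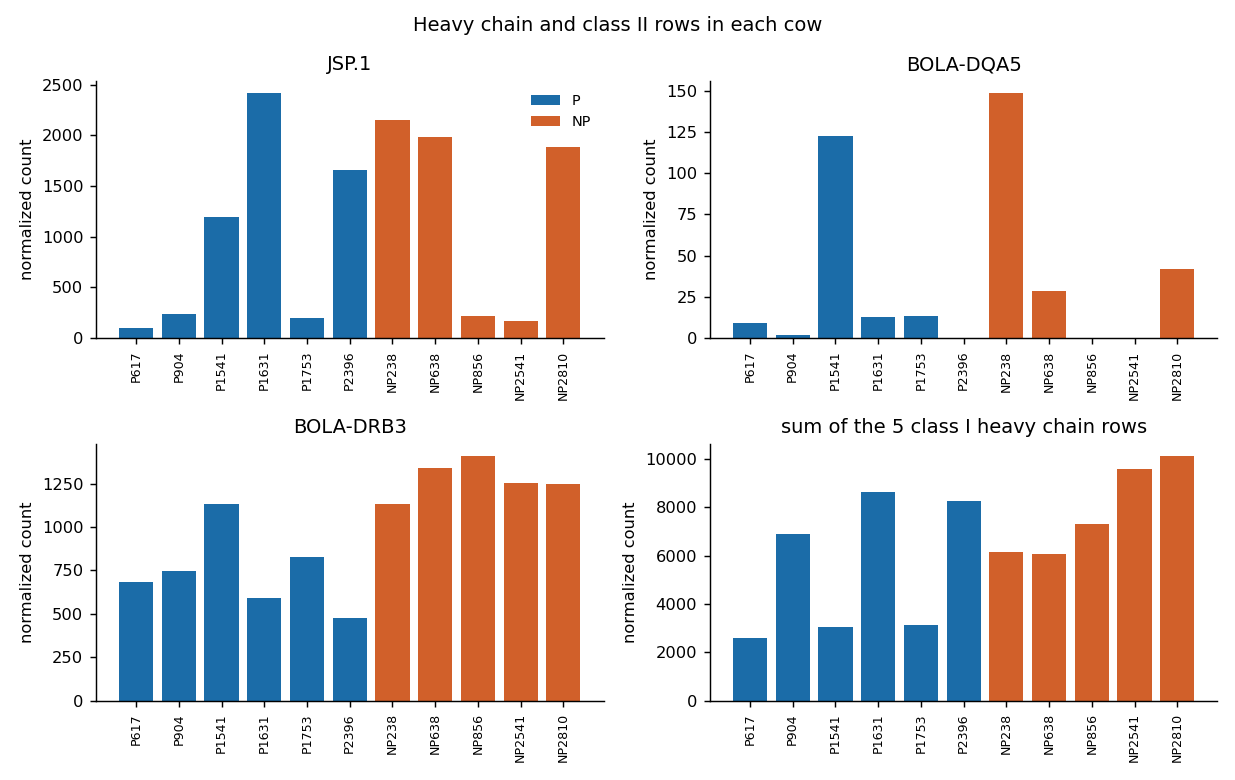
Normalized counts of JSP.1, BOLA-DQA5, BOLA-DRB3 and the sum of the 5 class I heavy chain rows in each P cow (blue bars) and NP cow (orange bars). JSP.1 was between 92.6 and 237 in 5 cows and between 1193 and 2415 in the other 6, while BOLA-DRB3 was at 1133 or more in every NP cow and at 1131 or less in every P cow.

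In the wider pathway, described by lists of its other genes, 0 genes were called. Of the 18 rows tested in the class II pathway list, 0 were called and 2 had an unadjusted p-value under 0.05, BOLA-DRB3 and BOLA-DMB, both higher in NP cows, and the median log2 fold change was 0.12. The third gene by p-value was CTSS, the cathepsin that trims CD74, at 0.45 (adjusted p-value 0.738 in limma). Of the 12 genes of the class I pathway list, 0 were called, 0 had an unadjusted p-value under 0.05 and the median was -0.08. The largest values there were 0.46 for ERAP1, the aminopeptidase that trims peptides in the endoplasmic reticulum (adjusted p-value 0.691), and 0.30 for PSMB10, the remaining catalytic subunit of the immunoproteasome (adjusted p-value 0.729). The chaperones calreticulin (CALR, -0.08), calnexin (CANX, -0.08) and PDIA3 (-0.09), which act with tapasin, were near 0.

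Of the costimulatory genes, which antigen-presenting cells need to activate T cells, 3 were tested and 0 were called. CD83 had a log2 fold change of 1.24 (unadjusted p-value under 0.05, adjusted p-value 0.624 in limma), CD86 of 0.99 (0.678) and CD40 of 0.31 (0.863). Of the interferon-gamma list, 14 rows were tested, 0 were called and 1, the transcription factor IRF1, had an unadjusted p-value under 0.05 (log2 fold change 0.63, adjusted p-value 0.514), followed by IRF8 (0.65, adjusted p-value 0.689) and the receptor chain IFNGR1 (0.32, adjusted p-value 0.744). IFNG itself had 2 reads in all, both in NP2541, and was at 0 in the other 10 cows.

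The members were then related to PTPRC. PTPRC (ENSBTAG00000023144) was between 149 and 267 normalized counts in P cows (median 194) and at 224 (NP238), 205 (NP638), 315 (NP856), 282 (NP2541) and 315 (NP2810) in NP cows. It was 1.36-fold higher in NP cows by the mean on the log2 scale (log2 fold change 0.44, 95% interval 0.02 to 0.87, adjusted p-value 0.613 in limma). Across the 11 cows, 0 of the 9 members and 0 of the 15080 other genes (0%) had a slope on PTPRC with an adjusted p-value under 0.1. Before adjustment, 8 of 9 members had p-values under 0.05, namely 7 with a positive slope, against 6.07% of all genes, and TAPBP with a negative slope, against 4.91%. Such slopes were not particular to the members. Positive ones were found in 7 of 8 endothelial and 10 of 13 T and NK cell genes, and negative ones in 9 of 9 smooth muscle genes. In epithelium 0 of 10 and in stroma 0 of 8 genes had such a slope. PTPRC thus also moved with tissue markers, and their part in the slopes was not tested. The adjusted p-values of the members ranged from 0.277 to 0.510.

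A slope of 1 means that the level of a gene doubles where that of PTPRC doubles. The slopes were 1.22 for CIITA, 1.12 for TAP1, 1.08 for PSMB9, 0.93 for B2M (95% interval 0.298 to 1.55), 0.88 for PSMB8, 0.82 for BOLA-DRA, 0.78 for CD74 and 0.53 for BOLA-DMA, and -0.42 for TAPBP (-0.84 to -0.01). Their intervals overlapped widely among the 8 positive ones. The order of the members by correlation with PTPRC depended on the measure. B2M had the highest Pearson r (0.79, permutation p = 0.00427), higher than that of 99.4% of the genes tested, with Spearman rho = 0.71 (permutation p = 0.0178). TAP1 had the highest rho (0.84, permutation p = 0.00245) and r = 0.60 (permutation p = 0.0424). BOLA-DRA (r = 0.73, permutation p = 0.0121; rho = 0.66, permutation p = 0.0303) and CD74 (r = 0.73, permutation p = 0.0112; rho = 0.65, permutation p = 0.0333) were next to B2M by r but below TAP1, PSMB9, B2M, PSMB8 and BOLA-DMA by rho. TAPBP had r = -0.60 (permutation p = 0.0343) and rho = -0.75 (permutation p = 0.0103). PSMB9 and CIITA both had r = 0.67 (rho 0.73 and 0.63). Over the 70 relations computed in this family, the adjusted permutation p-values of r with PTPRC were 0.0187 for B2M, 0.0268 for BOLA-DRA, 0.0262 for CD74, 0.0421 for PSMB9 and 0.047 for CIITA. They were 0.0559 for TAPBP, and 0.0674, 0.0958 and 0.114 for TAP1, PSMB8 and BOLA-DMA. Those of rho were 0.0541 for B2M, 0.0643 for BOLA-DRA, 0.0686 for CD74, 0.0344 for TAPBP and 0.0214 for TAP1. For PSMB9 and CIITA they were 0.0444 and 0.0806, and for both PSMB8 and BOLA-DMA 0.0612. Without P1541 and P1753, the 2 cows farthest from the median of PTPRC, r was 0.65 for B2M, 0.63 for BOLA-DRA, 0.59 for CD74, 0.58 for TAP1 and -0.50 for TAPBP. The slope of TAPBP was -0.18 without NP856 (unadjusted p-value 0.228 in limma).

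Within the 6 P cows, r with PTPRC was 0.82 for B2M (exact permutation p = 0.0708), -0.80 for TAPBP (0.0597), 0.61 for BOLA-DRA (0.188), 0.64 for CD74 (0.164) and 0.07 for BOLA-DMA (0.915), and 0 members were under 0.05 before adjustment in limma. The relation within the 5 NP cows was not tested, and correlations are given here only over at least 6 cows. Over the cows of both groups without P1541, 3 members rather than 8 had a slope on PTPRC with an unadjusted p-value under 0.05. With the group as a covariate in limma, 1 member, B2M, had an unadjusted p-value under 0.05 for its slope on PTPRC (1.11, adjusted p-value 0.971).

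**Figure D4:**
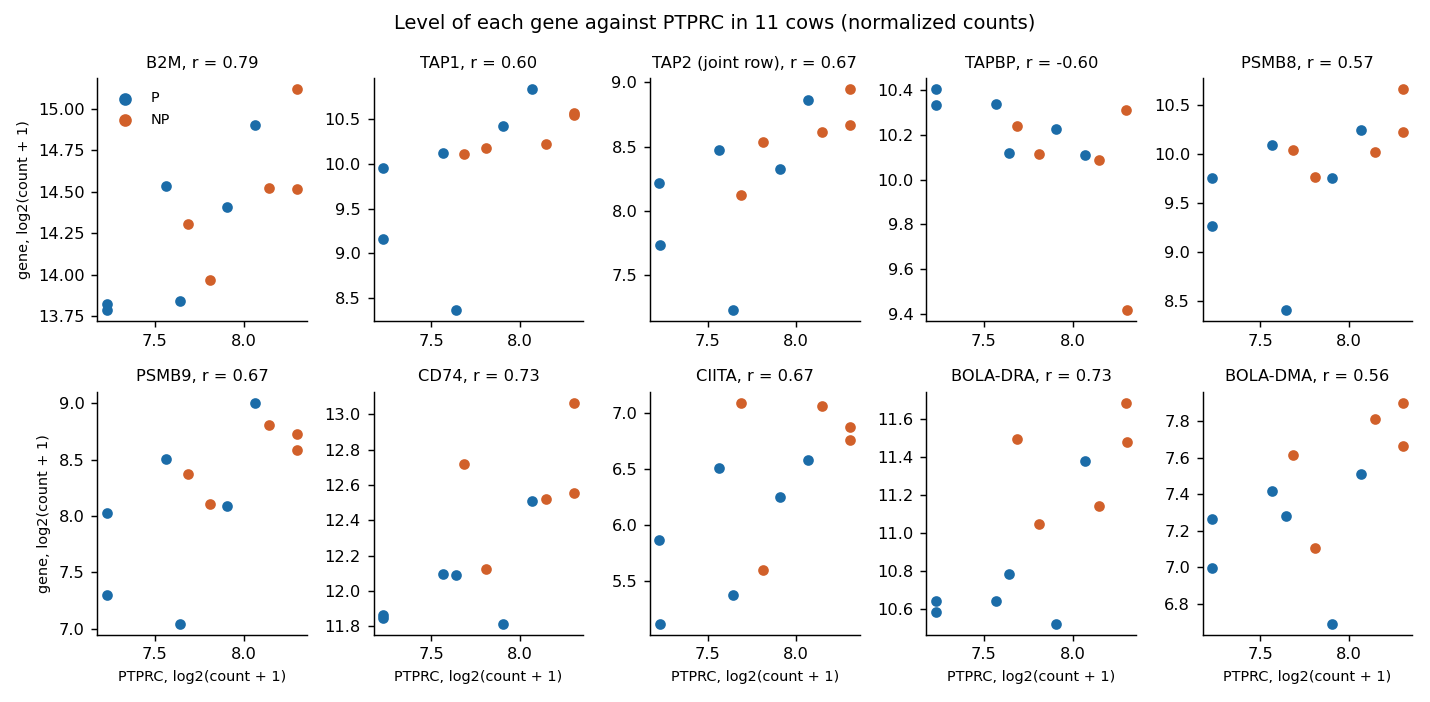
Level of each member and of the joint TAP2 row against PTPRC in the 11 cows, both as log2(normalized count + 1), with P cows in blue and NP cows in orange and Pearson r above each panel. The points run upward in all panels except that of TAPBP (r = -0.60), and the vertical axes differ in range between panels.

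With PTPRC held equal between the groups, the log2 fold changes were closer to 0 in all 9 members. Since PTPRC also moved with endothelial and smooth muscle markers, this does not hold leukocytes alone equal. In limma with PTPRC as a covariate, 0 of 9 members were called and 0 were under 0.05 before adjustment in limma, against 2.16% of all genes that were higher in NP and 0.935% that were higher in P. The log2 fold changes of the class II members were 0.39 for BOLA-DRA (95% interval -0.04 to 0.83), 0.34 for CD74, 0.30 for BOLA-DMA and 0.29 for CIITA. Those of the class I members were 0.26 for PSMB8, 0.07 for PSMB9, 0.03 for TAP1, -0.06 for TAPBP and -0.22 for B2M (-0.82 to 0.37). The adjusted p-values were all 0.999889. Without P904, BOLA-DRA was at 0.65 (unadjusted p-value under 0.05, adjusted p-value 0.867), and without P617, P1541 and NP638 the value for TAP1 was -0.37 (unadjusted p-value under 0.05, adjusted p-value 0.955). The values of PSMB8, PSMB9, CIITA and the joint TAP2 row also turned below 0 without these 3 cows. Without P617 alone, TAP1 was at -0.30, PSMB9 at -0.14, PSMB8 at -0.0066 and the joint TAP2 row at -0.14, and 4 rather than 7 members were above 0. The values moved by more than 1.5 times with other cows too, such as BOLA-DMA at 0.05 without P2396, CIITA at -0.15 without NP638 and BOLA-DRA at 0.22 and CD74 at 0.17 without NP638. BOLA-DRB3, which had a slope on PTPRC of 0.40 (adjusted p-value 0.746), had a log2 fold change of 1.04 at equal PTPRC (SE 0.224, adjusted p-value 0.999889).

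Markers of other cell types were compared in the same way, and 0 of them were called. Before adjustment, where 5.49% of all genes were under 0.05 and higher in NP, 7 of the 8 endothelial genes were so (CDH5 0.96, TIE1 0.94, TEK 1.17, smallest adjusted p-value 0.330 in limma), as were 4 of the 11 macrophage and dendritic cell genes (among them CD14 0.84, CSF1R 1.07 and CD163 1.23), 2 of the 13 T and NK cell genes (CD5 1.65 and CD4 1.45), 2 of the 9 pan-leukocyte genes (ARHGDIB 1.03 and PTPRC) and 2 of the 8 stromal genes (DCN 0.68 and LUM 0.80). In smooth muscle 2 of 9 were lower in NP cows (DES -1.48 and MYH11 -1.35), and in epithelium 0 of 10 and in B and plasma cells 0 of 3 had such a p-value. The summed level of the T and NK cell list was 459 to 1312 normalized counts in P and 630 to 1409 in NP cows, that of the macrophage and dendritic cell list 354 to 759 and 601 to 1471, and that of the endothelial list 4006 to 12470 and 7715 to 13839. Of the B and plasma cell list, MS4A1 had 11 reads in all over the 11 cows, CD79B 4 and PAX5 1, and CD79A was at 1.14 to 10.2 normalized counts, while the plasma cell genes IGJ and MZB1 were at 168 to 1126 and 10.2 to 37.7. XCR1 of dendritic cells had 5 reads in all. CD5 and CD4, which had the largest log2 fold changes named here, were also low. CD5 was at 2.28 to 25.9 normalized counts in P and 12.2 to 61.2 in NP cows, and CD4 at 2.26 to 18.2 and 4.06 to 28.3.

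The members were related to these lists by Pearson r with the mean log2 level of a list over the 11 cows. BOLA-DRA and CD74 had r of 0.88 and 0.82 with the macrophage and dendritic cell list (rho 0.85 and 0.79, permutation p of r adjusted over the 70 relations 0.00665 and 0.0154). Without the 2 cows farthest from the median of that list these were 0.88 and 0.77. With the epithelial list they had r of only 0.08 and 0.11. The other class II members, CIITA and BOLA-DMA, had r of 0.39 and 0.51 with the macrophage and dendritic cell list (adjusted permutation p of r 0.264 and 0.140). With the epithelial list CIITA and BOLA-DMA had r of 0.48 and 0.01. With the endothelial list CIITA and BOLA-DMA had r of 0.78 and 0.72 (rho 0.75 and 0.77, adjusted permutation p of r 0.0202 and 0.0268). Without P617 and NP2810, the 2 cows farthest from the median of the endothelial list, these were 0.72 and 0.85. TAP1 and PSMB8, in turn, had r of 0.84 and 0.83 with the epithelial list, but rho was 0.45 and 0.38, and without P1631 and P617, the 2 cows farthest from the median of that list, r was 0.72 and 0.46. With the T and NK cell list, r was 0.81 for B2M (rho 0.70), 0.80 for PSMB9 (rho 0.80), 0.78 for TAP1 (rho 0.91) and 0.79 for BOLA-DRA (rho 0.67), with adjusted permutation p-values of r from 0.0151 to 0.0202. With the endothelial list, r was 0.84 for both PSMB8 and PSMB9, 0.83 for BOLA-DRA and 0.81 for CD74 (rho 0.79, 0.85, 0.80 and 0.86), with adjusted permutation p-values of r from 0.00945 to 0.0154, and without P617 and NP2810 it was 0.67, 0.71, 0.91 and 0.93. With smooth muscle, r was -0.79 for TAP1, -0.77 for PSMB8, -0.74 for PSMB9, -0.66 for B2M and -0.88 for the joint TAP2 row (rho -0.81, -0.78, -0.70, -0.68 and -0.88, adjusted permutation p of r 0.0142, 0.0154, 0.0237, 0.0522 and 0.00665), and -0.55, -0.51, -0.46 and -0.31 for BOLA-DRA, CD74, CIITA and BOLA-DMA. Without P617 and P1541 the first 5 were -0.55, -0.52, -0.36, -0.44 and -0.78. For CIITA, r turned from -0.46 to 0.15 without these 2 cows. Within the 6 P cows, which include both of them, r with smooth muscle was -0.99 for PSMB9 (exact permutation p = 0.00139), -0.97 for CIITA (0.00556), -0.92 for TAP1 (0.0125) and -0.92 for PSMB8 (0.00417). The relation within the 5 NP cows was not tested, so these values describe the P cows only. These r share the libraries and the parts that the tissues hold in them, and the differences between them were not tested.

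**Figure D5:**
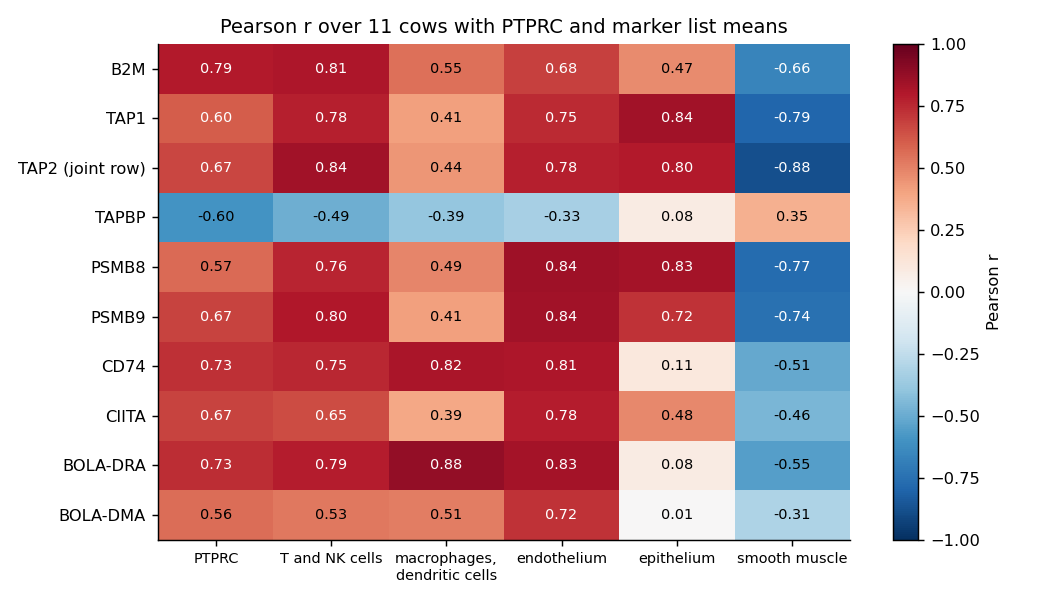
Pearson r over the 11 cows between each member (rows) and PTPRC or the mean log2(normalized count + 1) of a marker list (columns), from -1 (blue) to 1 (red). BOLA-DRA and CD74 had r of 0.88 and 0.82 with macrophages and dendritic cells and of 0.83 and 0.81 with endothelium. CIITA and BOLA-DMA had r of 0.39 and 0.51 with macrophages and dendritic cells and of 0.78 and 0.72 with endothelium. TAP1 and PSMB8 had r of 0.84 and 0.83 with the epithelial list, which was 0.72 and 0.46 without P1631 and P617.

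With the smooth muscle mean as a covariate in limma, the log2 fold changes of the class I rows other than TAPBP were near 0 (B2M -0.03, TAP1 -0.06, the joint TAP2 row -0.01, PSMB9 0.09 and PSMB8 0.13). TAPBP was at -0.17. BOLA-DRA was at 0.52 and CD74 at 0.48 (unadjusted p-values 0.0247 and 0.0415, adjusted p-values 0.870 and 0.929). Without P617, P1541 and NP638 the values were 0.12 for B2M, 0.05 for TAP1, 0.15 for PSMB9 and 0.21 for PSMB8, and 0.56 for BOLA-DRA and 0.50 for CD74. CIITA was at 0.27 without these cows, BOLA-DMA at 0.46 and TAPBP at -0.29. Over all settings other than single cows left out, the smooth muscle covariate included, CIITA ranged from 0.27 to 0.75 and BOLA-DMA from 0.41 to 0.46. The slopes on PTPRC with this covariate were 0.18 for TAP1, 0.08 for PSMB8, 0.48 for PSMB9, 0.76 for B2M, 0.76 for BOLA-DRA and 0.78 for CD74, of which CD74 had an unadjusted p-value under 0.05 (adjusted p-value 0.866).

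Over the 11 cows the 6 pairs of B2M, TAP1, PSMB8 and PSMB9 had Pearson r from 0.73 to 0.93 (rho 0.82 to 0.89), and the 6 pairs of the class II members had r from 0.64 to 0.96 (rho 0.70 to 0.97). The 16 pairs across the routes had r from 0.23 (TAP1 with BOLA-DMA) to 0.86 (PSMB9 with CIITA), with a median of 0.62. The highest r of all 36 pairs was that of CD74 with BOLA-DRA (0.96, rho 0.97, adjusted permutation p over the 36 pairs 0.00036 for r). All 8 pairs of TAPBP had negative r, from -0.51 to -0.12, with adjusted permutation p-values from 0.161 to 0.646. Without P617, P1541 and NP638, r was 0.63 to 0.88 within class I, 0.54 to 0.94 within class II and 0.36 to 0.92 across, so the ranges of the routes overlapped.

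The 5 genes outside the lists whose level was most like the mean standardized level of the 9 members over the 11 cows were FAM110D (r = 0.96), RASIP1 (0.95), BEGAIN (0.95), SOX18 (0.94) and ELMO1 (0.94). RASIP1 and SOX18 are known from the endothelium. RASIP1 was at 546 ± 169 normalized counts (SD, n = 6) in P and 855.7 ± 155 (SD, n = 5) in NP cows (log2 fold change 0.68, adjusted p-value 0.396 in limma), and SOX18 at 185 ± 74.0 and 267 ± 95.6 (log2 fold change 0.54, adjusted p-value 0.738). The mean standardized level itself was lowest in P617 (-1.19) and P1541 (-0.92) and highest in NP2810 (1.13) and P904 (0.70).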

How the data were processed

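RNA-Seq libraries from poly(A) RNA of 11 endometrial biopsies were sequenced as paired-end reads by the authors, who filtered them with Seqyclean, mapped them in local mode with Bowtie2 (version 2.1.0) to the masked UMD3.1 assembly, counted reads per gene with HTSeq-count (0.5.4p2) and normalized them with DESeq2 (1.12.1). The authors deposited 1 table of these normalized counts (a signal of 0 or more). UMD3.1 is an assembly of Bos taurus, whereas the cows were Bos indicus. Gene annotation and strand use are not given in the sources used here. In every cow 100% of the values were whole reads times 1 factor (tolerance 0.001), and these reads entered the count tests. Groups were taken from the labels.

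Values were tested with limma 3.58.1 (lmFit, eBayes with a trend, R 4.3.3) on log2(value + 1) over 15081 genes with a mean of at least 5 and the Benjamini-Hochberg threshold 0.1, for the group, for the slope on log2 PTPRC and for the group with PTPRC as a covariate. P-values set a difference or slope against the spread among cows, which with 1 biopsy per cow includes differences between biopsies. Precision is limited by 6 and 5 cows, and for low genes also by counting error. For single values, exact permutation tests were used (two-sided), and correlations over 11 cows with permutation tests of 100000 resamples. Alternatives were edgeR 4.0.16, DESeq2 1.42.0, limma-voom, TMM normalization, pseudocounts of 0.5 and 5, other filters, covariates, the pan-leukocyte list in place of PTPRC, and left-out cows. The scripts were tested on simulated data. The members and the lists were chosen with earlier results of these data known. Named genes are all listed members, PTPRC, the 3 genes of each list with the smallest p-values and the 5 unlisted genes most correlated with the members' mean. CALR, CANX, PDIA3, JSP.1, the DQ rows and markers with few reads were named outside this rule after their values were seen. No sequences were analysed, since the reference table is of another assembly.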

Additional observations from a re-analysis of the deposited data

Results flagged for a closer look

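In 24 groups of P or NP cows looked at, 2 values lay far from the others of their group by Dixon's test, where chance gives about 1 in 20. Both belong to cow P904 and to class II members. CD74 was at 5823 normalized counts in P904 against 3601 to 4384 in the other P cows, and BOLA-DRA at 2655 against 1470 to 1759. The 2 genes had r = 0.96 with each other and so are not separate evidence. In the same cow the T and NK cell list had the highest mean log2 level of the P cows (5.97 against 4.08 to 4.96), and PTPRC was the highest of the P cows at 267. P904 was also the highest P cow in the mean log2 levels of the endothelial list (10.2 against 8.65 to 9.56) and of the macrophage and dendritic cell list (5.25 against 4.28 to 4.88), and the lowest in that of smooth muscle (11.9 against 12.4 to 14.6). The part of these cell types in the values was not tested.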

How the results depend on the processing

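No paired analysis was possible because the cow numbers of the groups are not shared. In the group comparison, the number of genes called was 201 with DESeq2 and 0 with edgeR, limma-voom, TMM and the other pseudocounts and filters, and 0 to 171 in leaving out each cow (171 without P904). Members called were 0 to 1 and members with an unadjusted p under 0.05 were 2 to 6 in leaving out each cow, and 4 with DESeq2. With the smooth muscle covariate, B2M (-0.035), TAP1 (-0.063) and the joint TAP2 row (-0.012) turned below 0. In the PTPRC relation, members with an unadjusted p under 0.05 were 1 with the group as a covariate, 1 with the smooth muscle covariate, 0 in P cows alone (fewer samples) and 3 to 8 in leaving out each cow. The genes called were 122 with the pan-leukocyte list, of which 0 were members, and 0 to 4 in leaving out each cow. At equal PTPRC, 1 member had an unadjusted p under 0.05 with the pan-leukocyte list, 1 without P617, P1541 and NP638, and 0 to 1 in leaving out each cow. Without these 3 cows TAP1 was at -0.37, the joint TAP2 row at -0.031, PSMB8 at -0.076, PSMB9 at -0.24 and CIITA at -0.25. In leaving out each cow they ranged from -0.30 to 0.37, -0.14 to 0.29, -0.0066 to 0.48, -0.14 to 0.42 and -0.15 to 0.65. The immunoproteasome difference was 0.71 with PSMB10 and PSMB7 added and 0.55 to 0.99 in leaving out each cow. The cause of these changes was not tested. All slopes on PTPRC and the group differences of CD74, BOLA-DRA, BOLA-DMA, CIITA, PSMB8, PSMB9 and TAPBP kept their direction in every alternative run. With 6 and 5 cows, the 95% intervals of TAP1, PSMB8 and PSMB9 cover values below 0 as well as a doubling.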
